A study of Saccharomyces cerevisiae with 12 samples.

Results

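The genes described here are 10 genes of glycerol and polyol metabolism in budding yeast, picked as a list of gene names: GPD1 (YDL022W), GPD2 (YOL059W), GPP1 (YIL053W), GPP2 (YER062C), STL1 (YDR536W), GCY1 (YOR120W), DAK1 (YML070W), GRE3 (YHR104W), GUT1 (YHL032C) and GUT2 (YIL155C). All 10 were found among the 6713 targets of each library, and all 10 had enough counts to be among the 6327 targets tested. Messenger RNA was sequenced from 12 libraries of Saccharomyces cerevisiae, 3 per strain. The strains were RPD3 KO, which lacks the histone deacetylase gene RPD3, RPD3 S418A and SWI3 S237A, named for a serine-to-alanine change in Rpd3 and in the chromatin remodelling subunit Swi3, and wild type, and all 4 carry the strain label S288c. The growth condition of all 12 is synthetic defined medium, with harvest at an OD600 of 0.4. The shared protocol text also mentions 20 mM caffeine for 4 hours for some samples, and none of these 12 is labelled with it.

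Yeast makes glycerol from the glycolytic intermediate dihydroxyacetone phosphate in a pair of steps, reduction by glycerol-3-phosphate dehydrogenase and removal of the phosphate by glycerol-3-phosphatase. Each step has an isoform pair. Gpd1 and Gpp2 are known for their part in osmotic stress, in which the kinase Hog1 raises glycerol as the cell's solute, while Gpd2 and Gpp1 are better known for anaerobic growth, where glycerol takes up surplus NADH. Glycerol can be taken up by the symporter Stl1 and used either through Gut1 and Gut2 or through Gcy1 and the dihydroxyacetone kinase Dak1. Gre3 is an aldose reductase that reduces sugars such as xylose to polyols.

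Upstream sequence is shown for 5 members, GPD1, GPP2, GCY1, GRE3 and GPD2, picked with their values known, so that the elements of genes that fell in both RPD3 KO and SWI3 S237A can be set beside those of GPD2. Each stretch has 280 bases and begins 400 bases before the start codon, 5′ to 3′ on the strand of the gene, from the R64 reference. Capitals mark CCCCT or its reverse AGGGG, the stress response element (STRE) read by Msn2 and Msn4, and TGACGT or its reverse ACGTCA, the core of the element read by the Hog1 target Sko1.
GPD1, chrIV:411425-411704, plus strand: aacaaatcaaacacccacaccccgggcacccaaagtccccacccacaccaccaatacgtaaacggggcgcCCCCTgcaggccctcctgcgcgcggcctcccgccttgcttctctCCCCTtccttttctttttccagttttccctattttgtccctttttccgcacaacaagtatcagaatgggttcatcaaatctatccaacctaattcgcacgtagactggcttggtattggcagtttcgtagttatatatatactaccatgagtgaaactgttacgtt
GPP2, chrV:280803-281082, minus strand: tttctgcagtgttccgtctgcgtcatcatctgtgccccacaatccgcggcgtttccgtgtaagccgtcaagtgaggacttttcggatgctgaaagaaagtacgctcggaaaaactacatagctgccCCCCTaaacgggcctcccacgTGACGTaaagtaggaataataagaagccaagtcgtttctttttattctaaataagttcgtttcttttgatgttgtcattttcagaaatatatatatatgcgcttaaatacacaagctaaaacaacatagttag
GCY1, chrXV:550714-550993, plus strand: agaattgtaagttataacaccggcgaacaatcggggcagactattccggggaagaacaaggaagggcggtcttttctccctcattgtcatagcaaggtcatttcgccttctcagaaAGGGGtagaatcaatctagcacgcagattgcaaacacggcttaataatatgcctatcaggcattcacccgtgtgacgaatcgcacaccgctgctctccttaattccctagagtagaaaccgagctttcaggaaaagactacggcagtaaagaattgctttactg
GRE3, chrVIII:323009-323288, plus strand: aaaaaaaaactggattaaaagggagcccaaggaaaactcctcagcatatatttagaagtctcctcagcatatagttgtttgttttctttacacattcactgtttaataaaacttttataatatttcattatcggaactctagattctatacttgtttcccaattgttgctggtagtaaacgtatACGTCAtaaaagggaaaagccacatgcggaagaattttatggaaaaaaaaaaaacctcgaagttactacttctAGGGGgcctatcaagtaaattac
GPD2, chrXV:216726-217005, plus strand: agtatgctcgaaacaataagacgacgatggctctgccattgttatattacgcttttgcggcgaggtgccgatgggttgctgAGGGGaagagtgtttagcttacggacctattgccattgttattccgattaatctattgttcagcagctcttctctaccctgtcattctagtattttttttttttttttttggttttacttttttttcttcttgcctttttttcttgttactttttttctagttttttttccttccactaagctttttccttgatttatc
The 5 stretches overlap no coding sequence of the reference. The GPD1 stretch held 2 STRE matches, and those of GPP2, GCY1, GRE3 and GPD2 held 1 each. The Sko1 core occurred once in GPP2 and once in GRE3. Over the 600 bases before the start codon, at least 1 STRE was found in 8 of the 10 members (all but GPP1 and DAK1), against 39.7% of 6005 nuclear coding genes. GPD1 had 3 matches there, and 2.43% of genes had 3 or more. GPD2 and GUT1 had 2 each, and 10.8% of genes had 2 or more. GPP2, STL1, GCY1, GUT2 and GRE3 had 1 each. The second GPD2 match, 14 bases before the start codon, lies outside the stretch shown. The 2 matches of GPD2 lay between the 3 of GPD1 and the 1 each of GPP2, GCY1 and GRE3. Whether the number of matches goes with the changes in level was not tested. TGACGT occurred upstream of 4 of 10 members (GPP2, STL1, GUT2, GRE3) and 16.2% of genes. CATGTG, the core of the inositol-responsive element, occurred upstream of 3 of 10 (GPD2, GUT1, GRE3) and 16.4% of genes. GCCGCC, the core of the Ume6 site through which Rpd3 is recruited, occurred upstream of 0 of 10 and 11.4% of genes. The motifs, like the members, were chosen with earlier results of these data known, so these shares are a description. All motifs were searched on both strands, and a match is a string of letters and not a measured site.

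Total counts ran from 18.3 to 27.0 M per library. Levels are CPM, counts scaled by library size with TMM factors, and, where genes are compared with each other, TPM. TPM divides by length and carries no TMM factor. The RPD3 transcript had 0 counts in all 3 RPD3 KO libraries, 113 to 125 CPM in RPD3 S418A, 88.3 to 92.3 CPM in SWI3 S237A and 103 to 112 CPM in wild type. SWI3 itself had 69.8 to 106 CPM over the 12 libraries, and these counts do not test either serine change. The alpha-factor gene MF(ALPHA)1 had 543 to 1287 CPM and the a-factor gene MFA1 at most 0.647 CPM over the 12 libraries, the pattern of alpha cells. The alpha genes MF(ALPHA)2 (57.0 to 748 CPM) and STE3 (48.8 to 295 CPM) were lowest in RPD3 KO. The a genes MFA2, STE2 and BAR1 reached at most 0.306, 6.13 and 7.93 CPM. Wild type replicate 1 stood apart from wild type replicates 9 and 17 for several members, as given below. Differences are log2 fold changes ± SE from 1 edgeR quasi-likelihood fit over the 12 libraries, passed at an adjusted p under 0.05 over all 6327 genes. Separate cultures are not stated for the 3 libraries of a strain, so p-values measure the spread between these libraries. In bulk RNA, fewer cells with a transcript and less transcript per cell cannot be told apart.

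The deletion of RPD3 lowered 7 of the 10 members and raised none that passed. GPD1, GCY1 and GRE3 fell most, each more than 6-fold, and STL1, GPP2, DAK1 and GPD2 fell as well. SWI3 S237A lowered 5 (GPD1, GPP2, GCY1, GRE3, GUT1) and raised 4 (GPP1, GPD2, STL1, GUT2). RPD3 S418A lowered 1 of 10, GPD2. These shares stand beside large changes in the whole transcriptome: in RPD3 KO 38.0% of all genes tested were lower and 31.9% higher (1749 lower and 2650 higher genes under total counts only, against 2407 and 2018), in SWI3 S237A 31.3% were lower and 28.7% higher (1735 and 1981 under total counts only, against 1983 and 1816), and in RPD3 S418A 1.20% were lower and 0.822% higher. Members were called in either direction in 7, 9 and 1 of 10 in RPD3 KO, SWI3 S237A and RPD3 S418A, against 69.9%, 60.0% and 2.02% of all genes. The median log2 fold change of the members was -0.88 in RPD3 KO, -0.27 in SWI3 S237A and -0.02 in RPD3 S418A, against -0.06, -0.02 and -0.005 over all genes tested. The 3 libraries of a mutant did not overlap the 3 of wild type for 8 members in RPD3 KO (73.4% of all genes), 8 in SWI3 S237A (66.3%) and 2 in RPD3 S418A (18.3%). All 3 comparisons use the same wild type libraries.

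**Figure D1:**
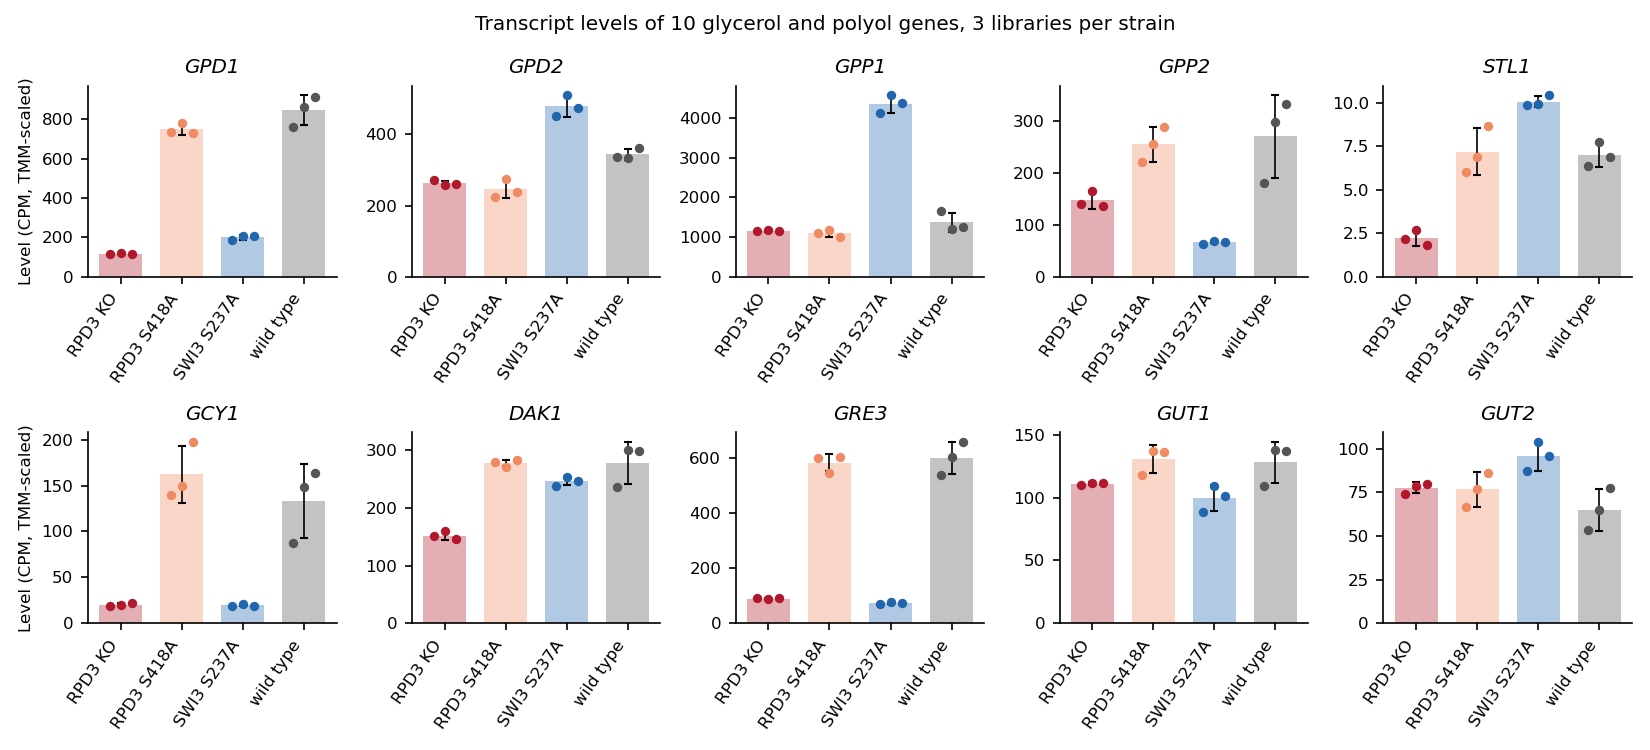
Level of each member in CPM (vertical axis, linear, from 0; each panel has its own scale) in RPD3 KO, RPD3 S418A, SWI3 S237A and wild type; points are libraries, bars are means and lines are SD (n = 3). GPD1, GCY1 and GRE3 are low in RPD3 KO and SWI3 S237A, and GPP1 is high in SWI3 S237A, at 4122 to 4577 CPM against 1214 to 1647 CPM in wild type.

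GPD1, the glycerol-3-phosphate dehydrogenase of osmotic stress (coding sequence chrIV:411825-413000, 1 exon), had 115, 119 and 115 CPM in RPD3 KO, 734, 782 and 729 in RPD3 S418A, 187, 209 and 208 in SWI3 S237A and 761, 860 and 914 in wild type. The libraries of RPD3 KO lay lowest, those of SWI3 S237A next, and both lay below every library of RPD3 S418A and wild type, which overlap. GPD1 fell in RPD3 KO (log2 -2.86 ± 0.08, adjusted p = 3.59e-11) and in SWI3 S237A (log2 -2.07 ± 0.08, adjusted p = 6.04e-10). It was higher in SWI3 S237A than in RPD3 KO (log2 0.79 ± 0.08, adjusted p = 2.81e-06). RPD3 S418A differed from wild type by log2 -0.18 ± 0.08 (adjusted p = 0.268).

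GPD2, the isoform of anaerobic growth (chrXV:217126-218448), had 271, 259 and 262 CPM in RPD3 KO, 225, 273 and 238 in RPD3 S418A, 453, 511 and 474 in SWI3 S237A and 337, 334 and 362 in wild type. SWI3 S237A was above wild type and both Rpd3 strains were below it, without overlap, while the libraries of the 2 Rpd3 strains overlap each other. GPD2 rose in SWI3 S237A (log2 0.48 ± 0.08, adjusted p = 0.000284), and fell in RPD3 KO (log2 -0.38 ± 0.08, adjusted p = 0.00105) and also in the S418A strain (log2 -0.49 ± 0.08, adjusted p = 0.00812). It was the sole member that passed in RPD3 S418A. The call ended when only the 6 libraries of that comparison were fitted (log2 -0.49, adjusted p = 0.14), and over the other alternatives its adjusted p ran from 1.85e-06 to 0.0431. RPD3 S418A against RPD3 KO gave log2 -0.10 ± 0.08 for GPD2 (adjusted p = 0.27).

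GPP1, the glycerol-3-phosphatase with the larger share of transcript (chrIX:255115-255867), had 1141, 1179 and 1145 CPM in RPD3 KO, 1092, 1180 and 996 in RPD3 S418A, 4122, 4577 and 4373 in SWI3 S237A and 1647, 1214 and 1252 in wild type. SWI3 S237A stood far above every other library. GPP1 rose in SWI3 S237A over wild type 3.18-fold (log2 1.67 ± 0.11, adjusted p = 9.2e-08) and over RPD3 KO 3.77-fold (log2 1.91 ± 0.11, adjusted p = 2.33e-08). The 2 Rpd3 strains lay below every wild type library without passing: log2 was -0.33 ± 0.11 in RPD3 S418A (adjusted p = 0.15) and -0.25 ± 0.11 in RPD3 KO (adjusted p = 0.0589). Wild type replicate 1 was the high wild type library. Without it the RPD3 KO value was -0.09, and without wild type replicate 9 or 17 the fall in RPD3 KO passed (log2 -0.33, adjusted p = 0.0243, and -0.31, adjusted p = 0.0341).

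GPP2, the phosphatase of osmotic stress (chrV:279930-280682, minus strand), had 140, 164 and 135 CPM in RPD3 KO, 219.7, 254.5 and 287.8 in RPD3 S418A, 63.4, 68.1 and 66.7 in SWI3 S237A and 180, 298 and 331 in wild type. SWI3 S237A was lowest and RPD3 KO next, both below wild type, and RPD3 S418A overlaps wild type. GPP2 fell in SWI3 S237A (log2 -2.03 ± 0.19, adjusted p = 4.73e-06) and in RPD3 KO (log2 -0.88 ± 0.19, adjusted p = 0.00133). It was lower in SWI3 S237A than in RPD3 KO (log2 -1.15 ± 0.19, adjusted p = 0.000269), the opposite order to GPD1. Wild type replicate 1 was the low wild type library, and without it the falls were -2.25 and -1.10.

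The balance within each pair was compared per library as a ratio of TPM, which is a level per length. GPD1 made up 33.6, 35.4 and 34.6% of the GPD1 and GPD2 total in RPD3 KO, 79.3, 77.4 and 78.5% in RPD3 S418A, 33.0, 32.9 and 34.6% in SWI3 S237A and 73.0, 75.5 and 74.9% in wild type. The major dehydrogenase transcript was therefore GPD2 in RPD3 KO and SWI3 S237A, and GPD1 in RPD3 S418A and wild type. The ratio of GPD1 to GPD2 was lower than in wild type by log2 2.47 in RPD3 KO and by log2 2.53 in SWI3 S237A, and higher by log2 0.32 in RPD3 S418A, with no overlap of libraries in any of the 3. GPP2 made up 11.1, 12.4 and 10.7% of the phosphatase pair in RPD3 KO, 17.1, 17.9 and 22.6% in RPD3 S418A, 1.55, 1.5 and 1.52% in SWI3 S237A and 9.98, 19.9 and 21.1% in wild type. The ratio of GPP2 to GPP1 was 12.6-fold lower in SWI3 S237A than in wild type and 8.31-fold lower than in RPD3 KO, without overlap. In RPD3 KO and RPD3 S418A this ratio overlapped wild type, whose replicate 1 was lowest. The exact two-sided permutation p of each ratio was 0.1 wherever libraries did not overlap, the smallest that 3 against 3 libraries can give (Benjamini-Hochberg adjusted p = 0.143 over 10 tests).

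**Figure D2:**
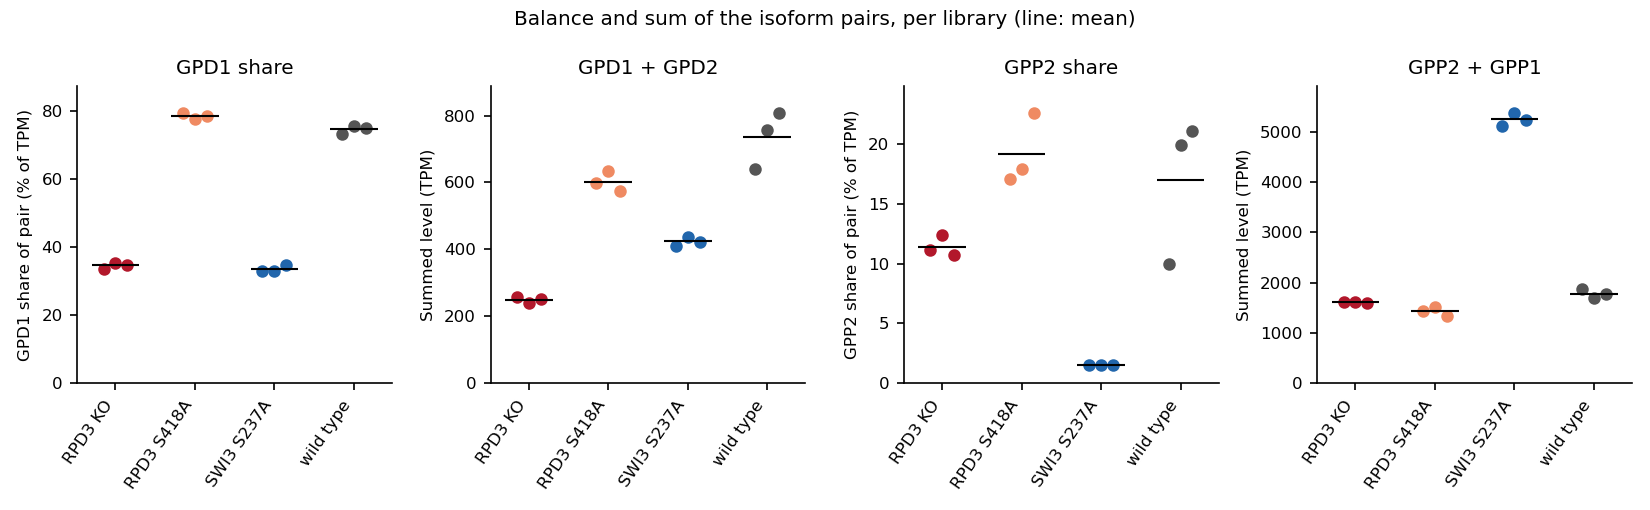
Share of GPD1 in GPD1 plus GPD2 and of GPP2 in GPP1 plus GPP2 (percent of TPM), and the sum of each pair (TPM), per library, in RPD3 KO, RPD3 S418A, SWI3 S237A and wild type; points are libraries and lines are means, and all axes start at 0. The GPD1 share is near 34% in RPD3 KO and SWI3 S237A and above 70% in the other strains, and the GPP2 share is near 1.5% in SWI3 S237A.

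Summed levels in TPM differed as well. GPD1 and GPD2 together had 258, 240 and 251 TPM in RPD3 KO, 597, 635 and 575 in RPD3 S418A, 411, 438 and 423 in SWI3 S237A and 640, 758 and 808 in wild type. GPP1 and GPP2 together had 1623, 1609 and 1602 TPM in RPD3 KO, 1442, 1504 and 1329 in RPD3 S418A, 5123, 5372 and 5236 in SWI3 S237A and 1880, 1693 and 1763 in wild type. The 4 synthesis genes thus summed to 1850 to 1881 TPM in RPD3 KO, 1904 to 2139 in RPD3 S418A, 5534 to 5810 in SWI3 S237A and 2450 to 2571 in wild type. In SWI3 S237A the phosphatase sum was above and the dehydrogenase sum below every wild type library.

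STL1, the glycerol/proton symporter (chrIV:1508005-1509714), was the lowest member in all 4 strains per length. It had 2.14, 2.67 and 1.80 CPM in RPD3 KO (39 to 54 counts), 6.001, 6.895 and 8.693 in RPD3 S418A, 9.854, 9.909 and 10.45 in SWI3 S237A and 6.37, 7.76 and 6.89 in wild type. RPD3 KO lay below and SWI3 S237A above all other libraries. STL1 fell in RPD3 KO (log2 -1.67 ± 0.18, adjusted p = 3.17e-06) and rose in SWI3 S237A (log2 0.52 ± 0.16, adjusted p = 0.0131), and the mutants differed by log2 2.19 ± 0.18 (SWI3 S237A over RPD3 KO, adjusted p = 3.75e-07), the widest gap between them among the members. FPS1, the channel that lets glycerol out, rose in SWI3 S237A (239 against 144 CPM, log2 0.73 ± 0.07, adjusted p = 1.2e-06) and did not pass in RPD3 KO (147 CPM, log2 0.03 ± 0.06, adjusted p = 0.672; log2 0.21 and adjusted p = 0.0118 under total counts only).

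GCY1, a glycerol dehydrogenase of the aldo-keto reductase family (chrXV:551114-552052), had 19.0, 19.2 and 21.6 CPM in RPD3 KO, 140, 150 and 198 in RPD3 S418A, 18.9, 20.9 and 18.7 in SWI3 S237A and 86.9, 149 and 164 in wild type. RPD3 KO and SWI3 S237A overlap each other and lie below all other libraries. GCY1 fell in RPD3 KO (log2 -2.74 ± 0.22, adjusted p = 9.28e-07) and in SWI3 S237A (log2 -2.77 ± 0.22, adjusted p = 1.74e-06). The difference of SWI3 S237A from RPD3 KO was log2 -0.03 ± 0.22 (adjusted p = 0.908). Its paralog YPR1 changed little by comparison, with log2 -0.26 ± 0.08 in RPD3 KO (adjusted p = 0.00825, 0.408 under total counts only) and -0.31 ± 0.08 in SWI3 S237A (adjusted p = 0.00335).

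DAK1, which phosphorylates the dihydroxyacetone made by Gcy1 (chrXIII:133475-135229), had 151, 160 and 146 CPM in RPD3 KO, 279, 272 and 283 in RPD3 S418A, 239, 253 and 247 in SWI3 S237A and 236.6, 299.9 and 299.6 in wild type. RPD3 KO was lowest, and the other 3 strains lay close together. DAK1 fell in RPD3 KO (log2 -0.87 ± 0.09, adjusted p = 1.81e-06) and did not pass in SWI3 S237A (log2 -0.18 ± 0.09, adjusted p = 0.0957), where it passed without wild type replicate 1 (log2 -0.28, adjusted p = 0.000943). SWI3 S237A stood above RPD3 KO (log2 0.70 ± 0.09, adjusted p = 1.94e-05). The paralog DAK2 fell in RPD3 KO (2.09 against 10.9 CPM, log2 -2.38 ± 0.21, adjusted p = 6.18e-07) and in SWI3 S237A (6.25 CPM, log2 -0.80 ± 0.19, adjusted p = 0.00296).

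GRE3 (chrVIII:323409-324392) had 89.8, 86.9 and 90.3 CPM in RPD3 KO, 597, 545 and 601 in RPD3 S418A, 69.1, 76.5 and 71.9 in SWI3 S237A and 537, 602 and 656 in wild type. The 2 low strains do not overlap, with SWI3 S237A the lower, and both are far below RPD3 S418A and wild type. GRE3 fell 8.25-fold in SWI3 S237A (log2 -3.04 ± 0.09, adjusted p = 3.75e-11), the largest change of a member in any comparison with wild type, and 6.72-fold in RPD3 KO (log2 -2.75 ± 0.09, adjusted p = 5.05e-11). GRE3 was 1.23-fold lower in SWI3 S237A than in RPD3 KO (log2 -0.30 ± 0.08, adjusted p = 0.00715).

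The kinase and dehydrogenase of glycerol use, GUT1 and GUT2, differed from wild type by less than 1.5-fold in each mutant. GUT1, glycerol kinase (chrVIII:36379-38508, minus strand), had 110, 112 and 112 CPM in RPD3 KO, 118, 138 and 137 in RPD3 S418A, 89.0, 109 and 102 in SWI3 S237A and 109, 138 and 138 in wild type. The libraries of each mutant overlap those of wild type. GUT1 was lower in SWI3 S237A (log2 -0.36 ± 0.10, adjusted p = 0.00891; 0.0576 without SWI3 S237A replicate 2) and did not pass in RPD3 KO (log2 -0.21 ± 0.10, adjusted p = 0.0912; log2 -0.31 and adjusted p = 0.00586 without wild type replicate 1). GUT2, the mitochondrial glycerol-3-phosphate dehydrogenase (chrIX:51759-53708, minus strand), had 74.2, 78.7 and 80.0 CPM in RPD3 KO, 66.6, 77.1 and 86.3 in RPD3 S418A, 87.4, 104 and 95.9 in SWI3 S237A and 53.2, 64.7 and 77.4 in wild type. SWI3 S237A lay above all wild type libraries. GUT2 rose in SWI3 S237A (log2 0.56 ± 0.13, adjusted p = 0.00216) and did not pass in RPD3 KO (log2 0.25 ± 0.13, adjusted p = 0.0896), where it passed with DESeq2 (adjusted p = 0.0435), under total counts only (0.00998), and after leaving out wild type replicate 17 (0.011).

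**Figure D3:**
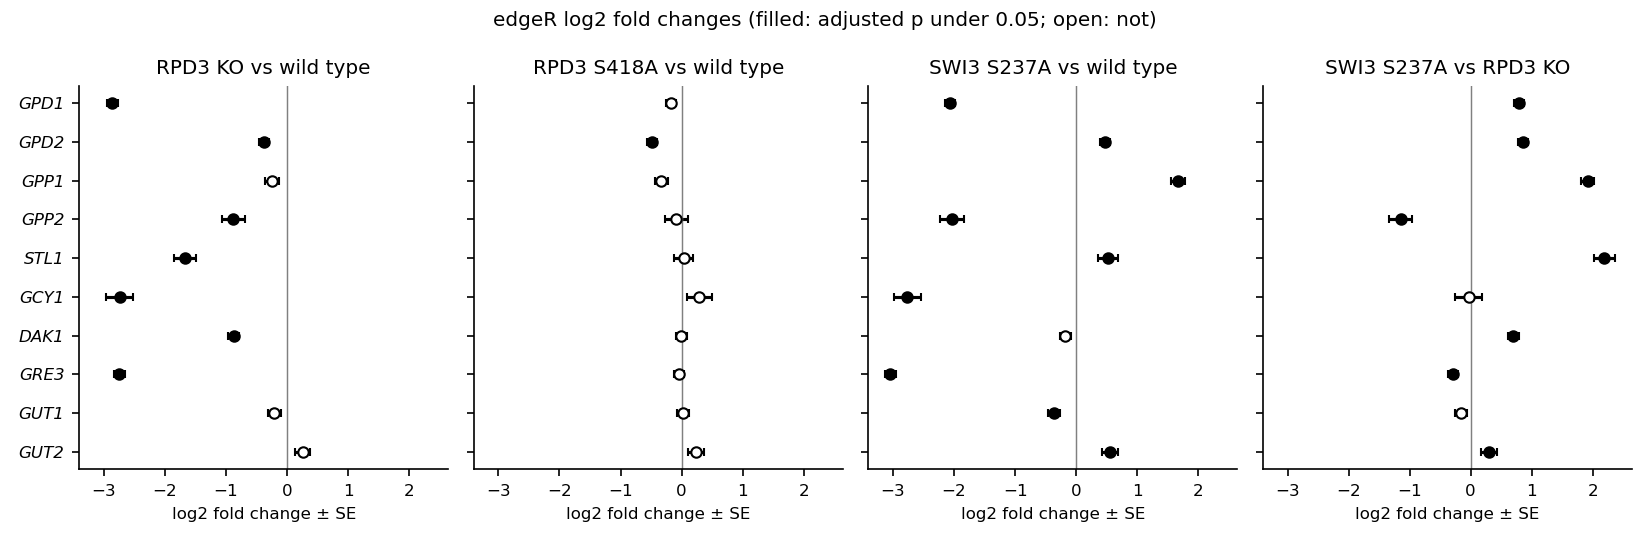
log2 fold change ± SE (horizontal axis) of each member in RPD3 KO, RPD3 S418A and SWI3 S237A against wild type, and in SWI3 S237A against RPD3 KO; filled points have an edgeR adjusted p under 0.05 and open points do not. GPD1, GCY1 and GRE3 are low in RPD3 KO and SWI3 S237A, GPP1 and GPP2 move in opposite directions in SWI3 S237A, and 1 point, GPD2, is filled for RPD3 S418A.

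The point mutant and the deletion of RPD3 were also compared directly. In RPD3 S418A, 6 of 10 members were higher than in RPD3 KO (GPD1, GPP2, STL1, DAK1, GCY1, GRE3) and 0 lower, against 39.4% and 33.3% of all genes (72.7% in either direction; 1937 higher and 2607 lower genes under total counts only, against 2496 and 2106). Libraries did not overlap for 7 members and 76.7% of all genes. The differences were log2 3.03 ± 0.22 for GCY1, 2.71 ± 0.09 for GRE3, 2.69 ± 0.08 for GPD1, 1.70 ± 0.18 for STL1, 0.87 ± 0.09 for DAK1 and 0.80 ± 0.19 for GPP2, with adjusted p from 4.37e-11 to 0.00239. Under total counts only GPD2 (log2 -0.28) and GPP1 (log2 -0.26) passed as lower. Between SWI3 S237A and RPD3 KO 6 members were higher in SWI3 S237A (GPD1, GPD2, GPP1, STL1, DAK1, GUT2) and 2 lower (GPP2, GRE3), against 32.3% and 32.1% of all genes (64.4% in either direction; 1520 higher and 2587 lower genes under total counts only, against 2042 and 2033). Libraries did not overlap for 9 members and 76.6% of all genes. For GUT2 that difference was log2 0.30 ± 0.13 (adjusted p = 0.0499), and it did not pass with DESeq2, with the RLE factors, under total counts only or without any 1 of the 6 libraries (adjusted p 0.0621 to 0.264), and passed under the other alternatives run.

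Other genes of these pathways were counted from lists of known yeast genes. The lists were chosen with earlier results of these data known, so their shares beside those of all genes are a description. All 9 further enzymes of glycerol and polyol metabolism passed as lower in RPD3 KO, against 38.0% of all genes, and 6 of 9 in SWI3 S237A, against 31.3%, with 0 higher in either. Of the 9 in RPD3 KO, YPR1 did not pass under total counts only, and the libraries of SOR2, a sorbitol dehydrogenase gene with the near-identical copy SOR1, overlapped (15, 7 and 0 counts in RPD3 KO, 98, 164 and 0 in wild type), so SOR1 and SOR2 are uncertain. ARA1 fell in RPD3 KO (181 against 537 CPM, log2 -1.57 ± 0.10, adjusted p = 3.21e-08), as did the reductase genes YDL124W (log2 -1.53 ± 0.12) and YJR096W (log2 -1.25 ± 0.12). In SWI3 S237A YDL124W (179 against 1103 CPM, log2 -2.62 ± 0.12, adjusted p = 2.39e-09), the xylulokinase gene XKS1 (log2 -1.52 ± 0.10) and ARA1 (log2 -0.83 ± 0.10) fell. In RPD3 S418A 0 of 9 passed. The medians of this list were log2 -1.53 in RPD3 KO, 0.16 in RPD3 S418A and -0.80 in SWI3 S237A.

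Of the 5 genes listed for the glycerol channel and its regulators (FPS1, RGC1, ASK10, GUP1 and GUP2), all but the channel gene FPS1 passed as lower in RPD3 KO. That is 4 lower and 0 higher, against 38.0% and 31.9% of all genes. In SWI3 S237A 2 passed as higher and 2 as lower, against 28.7% and 31.3%. ASK10, a regulator of the Fps1 channel, fell in RPD3 KO (log2 -0.45 ± 0.08, adjusted p = 0.000277) and rose in SWI3 S237A (log2 1.01 ± 0.08, adjusted p = 4.55e-07). GUP1 fell in RPD3 KO (log2 -0.43 ± 0.07) and in SWI3 S237A (log2 -0.28 ± 0.07). RGC1, the paralog of ASK10, fell in RPD3 KO (log2 -0.25 ± 0.06; adjusted p = 0.366 under total counts only) and in SWI3 S237A (log2 -0.28 ± 0.06).

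Of the 15 sensors and kinases of the high osmolarity pathway, 6 were higher and 4 lower in RPD3 KO and likewise in SWI3 S237A, near the 69.9% and 60.0% of all genes called in these strains. The mucin sensor gene MSB2 rose in RPD3 KO (log2 1.35 ± 0.12) and SWI3 S237A (log2 1.496 ± 0.12). So did the kinase gene SSK22 (log2 0.99 ± 0.07 and 0.59 ± 0.07), HKR1 (log2 0.70 ± 0.10 and 0.92 ± 0.10) and SLN1 (log2 0.94 ± 0.10 and 0.66 ± 0.10). SHO1 rose in RPD3 KO (log2 1.00 ± 0.09) and did not pass in SWI3 S237A (log2 0.21 ± 0.09, adjusted p = 0.0676). Adjusted p of the rises named here ran from 1.15e-07 to 0.000138. HOG1 itself fell in RPD3 KO (214 against 313 CPM, log2 -0.55 ± 0.07, adjusted p = 1.11e-05) and in SWI3 S237A (245 CPM, log2 -0.35 ± 0.07, adjusted p = 0.000662), and differed by log2 0.06 ± 0.07 in RPD3 S418A (adjusted p = 0.647). Of the effectors and phosphatases of Hog1, 2 rose and 7 fell of 10 in RPD3 KO, against 31.9% and 38.0% of all genes. In SWI3 S237A 2 rose and 5 fell, against 28.7% and 31.3%. MSN4, the stress activator gene, fell in RPD3 KO (24.4 ± 1.51 against 93.2 ± 10.8 CPM, SD, n = 3 each, log2 -1.93 ± 0.09, adjusted p = 2.29e-09) and SWI3 S237A (45.6 ± 2.09 CPM, log2 -1.03 ± 0.09, adjusted p = 9.24e-07), and rose in RPD3 S418A (126 ± 7.97 CPM, log2 0.43 ± 0.09, adjusted p = 0.0245), the sole gene of these lists that passed there. That call ended under total counts only (adjusted p = 0.0509), with the 2 groups alone (0.202) and without RPD3 S418A replicate 19 (0.0985). The phosphatase gene PTP3 rose in RPD3 KO (log2 1.57 ± 0.14) and SWI3 S237A (log2 0.48 ± 0.14), and PTP2 fell in both (log2 -0.47 ± 0.09 and -0.53 ± 0.09).

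Of 10 osmostress genes outside glycerol metabolism, 4 were higher and 5 lower in RPD3 KO, against 31.9% and 38.0% of all genes, and 1 was higher and 6 lower in SWI3 S237A, against 28.7% and 31.3%. The stress genes DDR2 (log2 -5.43 ± 0.59), HSP12 (log2 -3.94 ± 0.66), the catalase gene CTT1 (log2 -3.71 ± 0.30) and HOR7 (log2 -2.88 ± 0.15) fell in RPD3 KO. In SWI3 S237A HSP12 (log2 -6.70 ± 0.80), DDR2 (log2 -6.36 ± 0.64), HOR7 (log2 -4.12 ± 0.16) and CTT1 (log2 -3.29 ± 0.29) fell. HSP12 and DDR2 averaged only 1.48 and 0.598 CPM in SWI3 S237A. The wild type libraries differed widely for such genes, with 42.7 to 245 CPM for HSP12. The 4 that rose in RPD3 KO were GRE2 (log2 1.015 ± 0.07), PHM7 (log2 0.94 ± 0.11), ENA1 (log2 0.71 ± 0.13) and GRE1 (log2 0.70 ± 0.25). ENA1 also rose in SWI3 S237A (log2 0.74 ± 0.13). Among regulators of GUT1 and GUT2 the inositol activator gene INO2 rose in RPD3 KO (log2 1.67 ± 0.09) and SWI3 S237A (log2 1.39 ± 0.09), and its partner gene INO4 fell (log2 -0.55 ± 0.08 and -0.78 ± 0.08). ADR1, an activator of GUT1, fell in RPD3 KO (log2 -0.39 ± 0.12, adjusted p = 0.0114) and in SWI3 S237A (log2 -0.58 ± 0.12, adjusted p = 0.00113). OPI1, the repressor of the inositol genes, rose in RPD3 KO (log2 0.43 ± 0.10, adjusted p = 0.00153). Of the 8 genes of NADH shuttles and the dihydroxyacetone phosphate branch, 6 fell and 2 rose in RPD3 KO, against 38.0% and 31.9% of all genes. In SWI3 S237A 3 fell and 1 rose, against 31.3% and 28.7%. The NADH dehydrogenase genes NDI1 (log2 -1.51 ± 0.11) and NDE1 (log2 -0.94 ± 0.10) fell in RPD3 KO, as they did in SWI3 S237A (log2 -1.11 ± 0.11 and -1.02 ± 0.10), while NDE2 rose in RPD3 KO (log2 1.53 ± 0.23). SCT1 rose in RPD3 KO (log2 0.42 ± 0.06, adjusted p = 7.25e-05) and in SWI3 S237A (log2 0.42 ± 0.06, adjusted p = 0.000103).

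**Figure D4:**
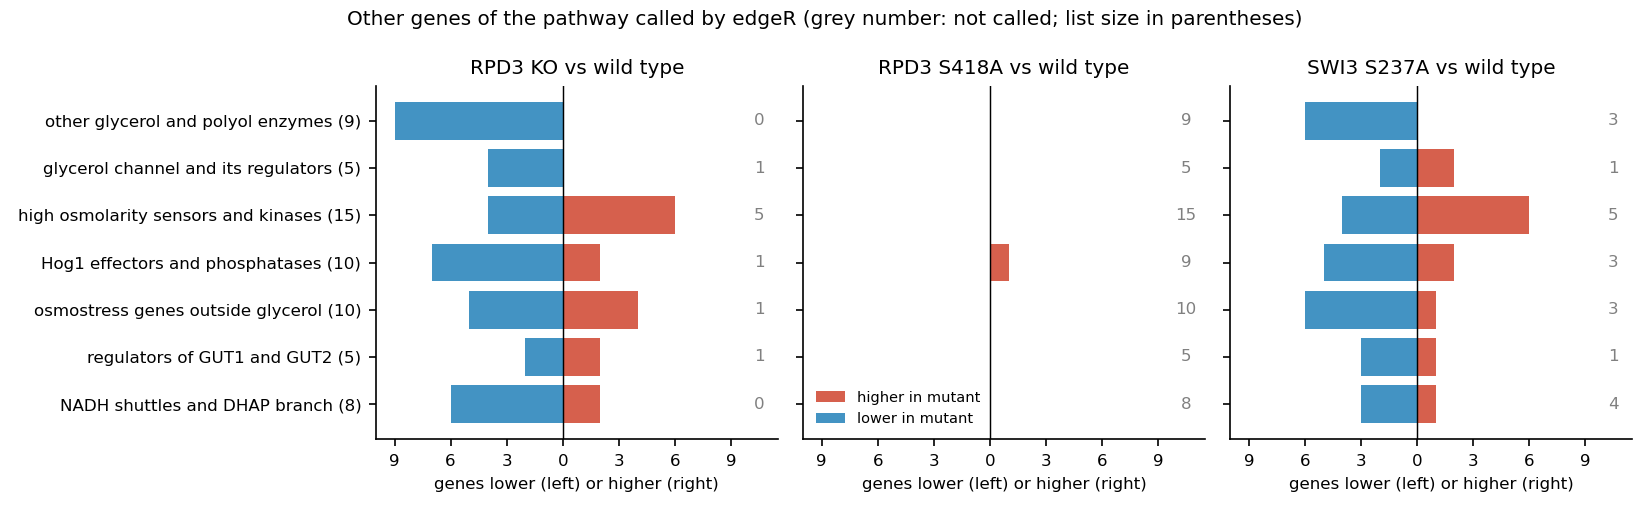
Number of genes of each further list that were lower (left of 0) or higher (right of 0) in RPD3 KO, RPD3 S418A and SWI3 S237A against wild type by edgeR at an adjusted p under 0.05; grey numbers count the genes that did not pass and list sizes are in parentheses. All 9 further enzymes are lower in RPD3 KO (8 under total counts only), against 38.0% of all genes. Of all the lists 1 gene, MSN4, passed in RPD3 S418A, a call that ended under 3 alternatives.

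Sharing of reads between genes was gauged from the reference. No member shared a 31-base word with another coding sequence of the reference, within either isoform pair included, and no member overlapped another coding gene. The 687 targets that the reference does not list were not searched. The estimated counts of 8 members were whole numbers, to within 1e-06, in all 12 libraries. Those of GPD1 in 11 and of GCY1 in 12 of 12 libraries were not, which happens where some reads fit more than 1 target, and which other targets these are was not tested.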

How the data were processed

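Library preparation was stranded and started from 600 ng of total RNA, as the labels' protocols state. The submitters' processing notes name Trimmomatic 0.36, kallisto 0.44.0 and the build R64. For kallisto, the strand setting was not given in the sources used here. Each target has an estimated count and a TPM in the deposited files, with its length and effective length in bases, per the file headers. The authors' deposited comparison tables hold a log2 fold change and an adjusted p-value for each target. Columns of per-sample values that matched no sample numbered 0.

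The estimated counts were rounded, then tested in R 4.3.3 with edgeR 4.0.16, in 1 robust quasi-likelihood fit over 12 libraries scaled by TMM after edgeR's default filter on low counts, with Benjamini-Hochberg adjustment over 6327 genes and calls at an adjusted p under 0.05. The method was also run on simulated counts in which few genes changed. In these data most genes tested passed in RPD3 KO and SWI3 S237A, so the simulation does not test the scaling of those comparisons. Alternatives were RLE factors, total counts only, no filter, DESeq2 1.42.0, a fit of the 2 groups alone, a block on runs of replicate numbers and each library left out. The members, lists and motifs were chosen with earlier results of these data known. Of the further lists, up to 3 called genes per list were named in each comparison with wild type, those of largest change with a mean of at least 10 CPM. DAK2, YPR1, FPS1, HOG1 and, in RPD3 KO, ADR1 were named in addition. So were HKR1, SLN1, SCT1 and HOR7 in RPD3 KO, SSK22, SHO1, GUP1 and CTT1 in SWI3 S237A, and the osmostress genes that rose. MFA1, MFA2, STE2, BAR1, MF(ALPHA)1, MF(ALPHA)2, STE3, RPD3 and SWI3 served as checks. Isoform ratios of TPM were tested by exact two-sided permutation of libraries. Sequences and coordinates came from RefSeq R64, whose coding length equals the file's for all 10 members; 6026 of 6713 targets matched.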

Additional observations from a re-analysis of the deposited data

How the results depend on the processing

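Of 600 recomputed member values, 557 kept their direction and their side of the threshold, 11 lost the call, 15 gained it and 17 changed sign, and the calls of all 7 members called in RPD3 KO against wild type, and of all called in SWI3 S237A against wild type except GUT1, held under every alternative run. Members called higher in RPD3 KO were 1 under total counts only and with DESeq2 and 0 to 1 with a library left out, against 0. Members called lower in RPD3 S418A against RPD3 KO were 2 under total counts only, against 0, and in RPD3 S418A against wild type 0 with the 2 groups alone, against 1. Total counts only moved the median of all genes by 0.18 in RPD3 KO against wild type, by -0.17 in RPD3 S418A against RPD3 KO and by -0.13 in SWI3 S237A against RPD3 KO (log2). Genes called higher and lower over the whole table in RPD3 S418A numbered 52 and 76, against 137 and 182 with DESeq2, 8 and 21 with the 2 groups alone, 22 to 123 and 38 to 149 with a library left out (123 and 149 without wild type replicate 1). The cause was not tested.

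The sign changes were of values that passed under no setting. With a library left out, RPD3 S418A against wild type ran from -0.308 to 0.088 for GPP2, -0.121 to 0.148 for STL1, -0.109 to 0.052 for DAK1 (0.00022 under total counts only), -0.078 to 0.095 for GUT1, -0.114 to 0.029 for GRE3, -0.012 to 0.294 for DAK2 and -0.057 to 0.029 for FPS1, and the log2 ratio of GPP2 to GPP1 ran from -0.127 to 0.510. GUT2 ran from -0.111 to 0.073 in RPD3 S418A against RPD3 KO, and GCY1 from -0.083 to 0.029 in SWI3 S237A against RPD3 KO. The alternatives for ratios and further genes were added after the data were seen, as was a replicate block. The strains share no replicate numbers, but the numbers form 3 runs (1 to 4, 9 to 12 and 17 to 20) with 1 library per strain, which the labels do not explain. Deviations from the strain means correlated over 0.1 in 7 of the 18 pairs of libraries within a run (r from -0.11 to 0.38). The main fit leaves the runs out because the labels do not name them. Whether libraries of a run share an effect was not tested. With the run as a replicate block, members called higher in RPD3 KO were 1 (GUT2, log2 0.27, adjusted p = 0.0163), GUT1 passed in RPD3 KO (log2 -0.20, adjusted p = 0.0299) and in RPD3 S418A against RPD3 KO (log2 0.23, adjusted p = 0.0146), no member lost a call, and DAK1 in RPD3 S418A was 0.0014. Depth limits STL1 most, at 39 to 54 counts per RPD3 KO library.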

Other observations

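The genes outside the list whose levels most resembled each member over the 12 libraries are given as a description, by Pearson's r of log2 CPM among genes with a mean of at least 10 CPM. The 12 points are 3 libraries of each of 4 strains. For GPD1 they were the mitochondrial Hsp70 gene SSC1 (r = 0.998) and the trehalose synthase subunit gene TSL1 (0.997). For GRE3 they were the Hsp90 cochaperone gene CPR6 (0.998) and YRO2 (0.998), and for GCY1 MSC1 (0.998) and the phosphatase regulator gene GIP2 (0.996). GPP1 resembled ADE3, of one-carbon metabolism (0.988), and the amino acid regulator gene GCN4 (0.985). GCN4 averaged 990 CPM in RPD3 KO, 886 in RPD3 S418A, 1908 in SWI3 S237A and 968 in wild type. GPP2 resembled ALD6, the cytosolic acetaldehyde dehydrogenase gene (0.99), and ARO10, of aromatic amino acid breakdown (0.986). GPD2 resembled PRM1 (0.973) and YRF1-3 (0.961), STL1 YCL049C (0.988) and QDR1 (0.986), DAK1 the vacuolar protease gene PRC1 (0.992) and GPM2 (0.99), GUT1 REC107 (0.985) and VRP1 (0.949), and GUT2 the phosphate carrier gene MIR1 (0.949) and TRP4 (0.948).

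The authors' deposited table gave the same direction as the edgeR fit for all 10 members in each of the 3 comparisons with wild type. Its log2 fold changes differed from those of edgeR by at most 0.05 in RPD3 KO, 0.006 in RPD3 S418A and 0.02 in SWI3 S237A. An adjusted p under 0.05 was given there for 7 members in RPD3 KO, 1 in RPD3 S418A and 9 in SWI3 S237A, and in the authors' deposited table GPD2 in RPD3 S418A had log2 -0.49 and an adjusted p of 1.06e-05.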
